A study of Mus musculus with 6 samples.

Results

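The transcription factors of the tail bud axial progenitors were examined in posterior tissue of embryonic day 9.5 mouse embryos, on 3 Splotch null and 3 wild type arrays. The set holds 10 genes chosen by symbol: T, Tbx6, Msgn1, Cdx1, Cdx2, Cdx4, Sp5, Sp8, Nkx1-2 and Evx1. Of these, 9 had a probe named for them, with 2 probes for Cdx1 and none for Sp8. Their 10 probes stand among 24466 probes tested, which cover 14332 named genes. Splotch mutations inactivate Pax3, which encodes a paired-box factor active in dorsal neural tube, neural crest and dermomyotome, and homozygous embryos commonly fail to close the spinal neural tube. The Splotch null embryos were nullizygous for it and the others were labelled wild type, on a strain the labels call LMBc in both genotypes. The labels name no Splotch allele and do not state how many embryos went into an array, so p-values measure only the spread between these samples. Embryos averaged 21.3 somite pairs, the tissue was cut off just below the forelimb bud, and amplified RNA from it was hybridised to single-colour CodeLink bioarrays. A label field calls the source anterior neural tube, while the series title, the tissue field and the protocol give the posterior part.

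The tail bud holds bipotent progenitors that extend the body axis by giving rise to both spinal cord and paraxial mesoderm. T, Cdx2 and Nkx1-2 are expressed in this population. Wnt signalling keeps T active in the progenitors, while Tbx6 and Msgn1 drive those that leave it towards presomitic mesoderm. The Cdx factors sustain axis growth and activate posterior Hox genes, and Sp5 and Sp8 act beside TCF/LEF factors at Wnt targets.

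For all 9 measured genes the 95% confidence interval of the difference between genotypes included 0. Msgn1 had the largest difference in favour of Splotch null embryos, 0.33 on a log2 scale (raw intensity plus 50, quantile-normalized between arrays), and Cdx1 the largest in favour of wild type, -0.28. Of the 9 genes, 7 were brighter on average in Splotch null embryos (T, Msgn1, Cdx2, Cdx4, Sp5, Nkx1-2 and Evx1) and 2 were dimmer (Tbx6 and Cdx1), where 51.2% of all probes tested were brighter. None passed limma with Benjamini-Hochberg adjustment over all probes, for which 0% of probes were called, and the lowest adjusted p among them was 0.9998. None had an unadjusted p under 0.05 either, a level that 1.34% of all probes (329) reached. The interval with the lowest end was that of Cdx1, at 0.522-fold of wild type, and the one with the highest end was that of T, at 1.94-fold.

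Promoter sequences were read for the genes with an entry in the RefSeq table of build GRCm38.p6, to show where letters of Wnt, T-box and Cdx binding sites lie. Of the 9 measured genes, 8 had an entry, and Cdx1 is named only. In the 250 bases before the annotated start, on both strands, 3 motifs were searched. The TCF/LEF core CTTTGA lay before T, Msgn1 and Sp5 (3 of 8), and 13.8% of all 32851 promoter windows held it. The T-box site AGGTGT lay before T, Cdx4 and Evx1 (3 of 8, against 11.8% of all windows), and the Cdx site TTTATG before T and Msgn1 (2 of 8, against 10.8%). No match overlapped another. The 3 promoters with the TCF/LEF core are printed 5′ to 3′ on the strand of the gene, as 180 bases that begin 250 bases before the start. Capitals mark CTTTGA or its reverse complement. T lies at chr17:8434423-8442496, Msgn1 at chr12:11208382-11208948 and Sp5 at chr2:70474923-70477726, and the printed stretches are chr17:8434173-8434352 (plus strand), chr12:11209019-11209198 (minus strand) and chr2:70474673-70474852 (plus strand). The annotated Msgn1 model spans the coding region alone, so its stretch lies before the coding start.
T: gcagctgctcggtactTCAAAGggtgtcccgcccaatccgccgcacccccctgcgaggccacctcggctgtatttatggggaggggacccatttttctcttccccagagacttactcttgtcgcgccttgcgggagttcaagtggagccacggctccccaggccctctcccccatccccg
Msgn1: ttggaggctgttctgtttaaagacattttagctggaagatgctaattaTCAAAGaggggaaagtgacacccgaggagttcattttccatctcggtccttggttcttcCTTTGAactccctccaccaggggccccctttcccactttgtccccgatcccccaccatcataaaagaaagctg
Sp5: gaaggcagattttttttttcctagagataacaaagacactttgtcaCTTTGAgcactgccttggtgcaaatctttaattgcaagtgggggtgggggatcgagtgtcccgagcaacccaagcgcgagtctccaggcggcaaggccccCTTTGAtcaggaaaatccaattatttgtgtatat
The match before T lies 234 to 229 bases before the start. Msgn1 holds matches at 202 to 197 and 143 to 138 bases, and Sp5 at 204 to 199 and 104 to 99 bases. A match describes these letters only.

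Arrays were similar in depth, with median raw intensities from 84.3 to 121.1, and 66.1% to 71.7% of probes lay above background. The Pax3 probe gave 10.72, 10.52 and 10.63 in Splotch null embryos, against 10.02, 10.83 and 10.51 in wild type embryos, on the quantile-normalized log2 scale used throughout. The genotypes overlapped (difference 0.17, SE 0.21), and since neither the allele nor the probe's position is given, this does not check the labels. A pair of arrays stood apart in markers of other tissues. Visceral endoderm and yolk sac markers, of which 10 of 15 were tested, averaged 7.95, 11.58 and 7.11 in Splotch null embryos, against 7.70, 8.28 and 8.29 in wild type. Afp reached 13.19 and Apoa1 13.80 on Splotch null 2, against at most 9.52 and 9.79 on the other arrays. On that array 10 neural progenitor genes also lay 0.75 below their own means on average. Primitive blood markers were brightest on average on wild type 1. Those measured on all arrays (7 of 10) averaged 10.38, 10.65 and 10.57 in Splotch null embryos, against 11.25, 9.80 and 9.75 in wild type embryos. Alas2, an enzyme of heme synthesis in red cells, read 10.11, 10.37 and 10.73 in Splotch null embryos, against 11.36, 9.25 and 9.22 in wild type embryos. The globin gene Hbb-y was the only tested blood marker not brightest on wild type 1. It read 14.32, 14.21 and 13.66 in Splotch null embryos, against 13.89, 13.72 and 13.20 in wild type embryos. Hba-x read nearly the same on wild type 1 (14.98) and Splotch null 2 (14.94). Tail bud and presomitic mesoderm markers (12 of 12 tested, 5 of them shared with the set described here) averaged 10.01 to 10.30 in Splotch null and 9.88 to 10.11 in wild type embryos over the 11 measured on all arrays. Of 14 brain markers 10 were tested, at a mean of 7.99 to 8.14 in Splotch null and 8.09 to 8.28 in wild type embryos. Otx2, Emx1 and Fezf1 were not above background on enough arrays to be tested, while the forebrain gene Six3 read 10.93 to 11.19 in Splotch null and 10.74 to 11.24 in wild type embryos. Hindgut markers (9 of 10 tested) averaged 8.79 to 9.36 in Splotch null and 8.77 to 9.13 in wild type embryos. Among the markers with the lowest p in these lists were Trf (1.10, SE 0.65), Apoc2 (1.999, SE 1.44) and Apoa2 (1.32, SE 1.03) of the yolk sac, and Hbb-y (0.46, SE 0.24), Hba-x (0.34, SE 0.25) and Alas2 (0.46, SE 0.55) of blood. In the brain list they were Lhx2 (-1.13, SE 0.26), En2 (-0.20, SE 0.12) and Emx2 (0.37, SE 0.22), and in the hindgut list they included Shh (0.43, SE 0.20) and Epcam (-0.20, SE 0.16). None of these differences, given as Splotch null minus wild type, passed limma's adjusted p. Lhx2 (limma p 0.0028 before adjustment) and En2 did not overlap, with Splotch null below. Genes without overlap were 2 of 10 in the brain list, 1 of 10 in the yolk sac list and 1 of 9 in the hindgut list. The blood list held 0 of 7, beside 5.24% of all probes measured on 6 arrays. Trf differed by 0.25, Apoc2 by 0.084 and Apoa2 by -0.029 without Splotch null 2, and the yolk sac list's median turned from 0.75 to -0.40. The part of these markers in the differences below was not tested. For each gene of the set, the difference without Splotch null 2 is given below. Without wild type 1, T differed by 0.43, Tbx6 by -0.25, Msgn1 by 0.30, Cdx1 by -0.31, Cdx2 by 0.075, Cdx4 by 0.18, Sp5 by 0.27, Nkx1-2 by 0.31 and Evx1 by 0.12.

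**Figure D1:**
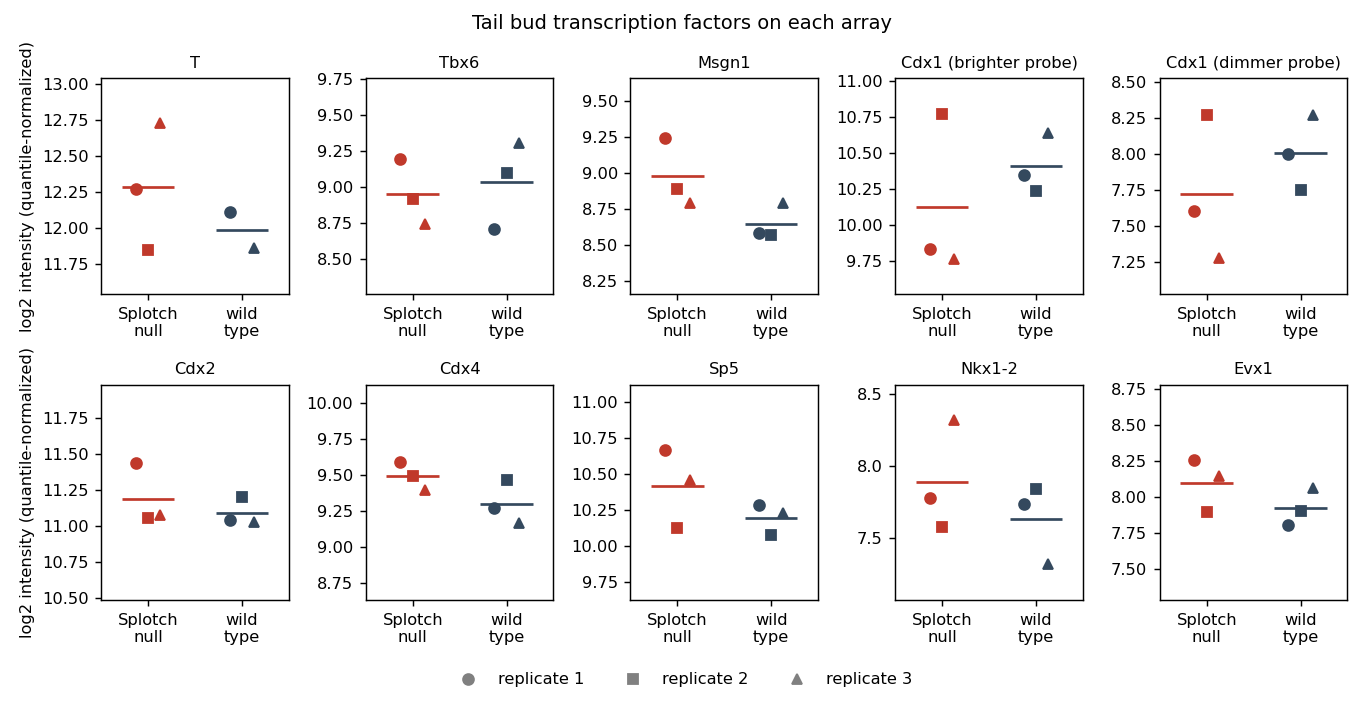
Quantile-normalized log2 intensity of each gene's probe on each array (vertical axis, own range per panel), with Splotch null arrays on the left and wild type on the right. Points are arrays, marked by replicate, and bars are group means. Only Msgn1 separates the genotypes, by 0.0036 between its nearest arrays, and T has 2 wild type points because its spot on wild type 2 was flagged.

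The T-box and mesoderm factors were measured by probes GE33755 (T), GE36173 (Tbx6) and GE120179 (Msgn1). T, the brachyury gene needed for mesoderm formation and the notochord, had 12.27, 11.85 and 12.73 in Splotch null embryos, against 12.11 and 11.86 in wild type embryos. Splotch null embryos held both the highest and the lowest value, so the genotypes overlapped. The spot of T on wild type 2 carried a flag other than good, near background or saturated, and was left out. Means were 12.28 ± 0.44 (SD, n = 3) in Splotch null and 11.98 ± 0.18 (SD, n = 2) in wild type, a difference of 0.30 (SE 0.27, 95% interval -0.35 to 0.96). An exact two-sided permutation test gave p = 0.6, where 3 arrays against 2 cannot go below 0.2. The difference was 0.076 without Splotch null 3 and 0.52 without Splotch null 2. On the authors' normalized intensity, T read 54.2, 41.4 and 59.2 in Splotch null, against 39.1 and 41.1 in wild type. There the genotypes did not overlap, but the left-out spot, at 42.3, would lie inside the Splotch null range. In bulk tissue, fewer cells of a type and less RNA per cell cannot be told apart, for T or for any gene below.

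Tbx6, a T-box factor that commits cells to paraxial mesoderm, lies at chr7:126781483-126785548 in GRCm38.p6. It had 9.20, 8.92 and 8.74 in Splotch null embryos, against 8.71, 9.10 and 9.30 in wild type embryos. Wild type arrays were both the brightest and the dimmest. Means were 8.95 ± 0.23 in Splotch null and 9.04 ± 0.30 in wild type embryos (SD, n = 3 each), a difference of -0.085 (SE 0.19, interval -0.54 to 0.37, exact permutation p = 0.8). The sign of this small difference turned with single arrays: it was 0.020 without Splotch null 3 and 0.048 without wild type 3.

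Msgn1, a basic helix-loop-helix factor of presomitic mesoderm that acts with Tbx6, had 9.25, 8.89 and 8.79 in Splotch null embryos, against 8.58, 8.57 and 8.79 in wild type embryos. Every Splotch null array lay above every wild type array, but the dimmest Splotch null array and the brightest wild type array differed by only 0.0036. Of the 23319 probes measured on all arrays, 3.13% lay above in the same way, 2.12% lay below and 5.24% did either. Msgn1 was the only gene of the set measured on all arrays to do so. Means were 8.98 ± 0.24 in Splotch null and 8.65 ± 0.12 in wild type embryos (SD, n = 3 each), a difference of 0.33 (SE 0.16, interval -0.039 to 0.70), or 1.26-fold (0.973 to 1.62). The limma p was 0.073 before adjustment, and the exact permutation test gave p = 0.1, the lowest 3 arrays against 3 allow. On the authors' normalized intensity Msgn1 read 5.77, 4.44 and 3.991 in Splotch null, against 3.44, 3.29 and 3.995 in wild type, so there the genotypes overlapped. The difference was 0.37 without Splotch null 2 and 0.19 without Splotch null 1.

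**Figure D2:**
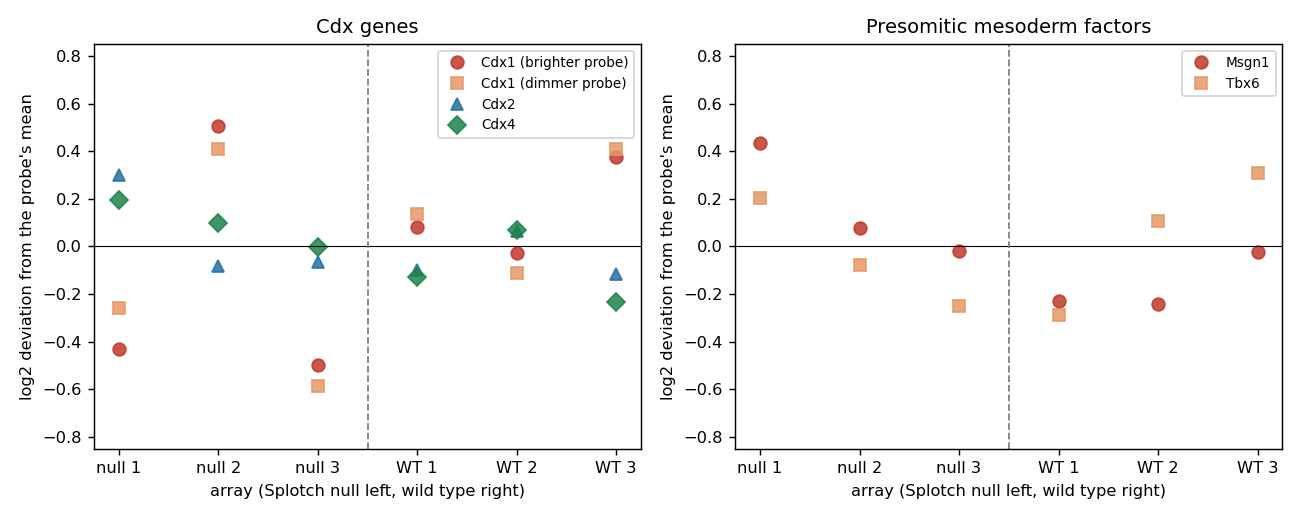
Deviation of each probe's log2 intensity from its own mean (vertical axis) on each array, with Splotch null arrays left of the dashed line and wild type right of it, for the Cdx probes (left panel) and for Msgn1 and Tbx6 (right panel). The 2 Cdx1 probes move together, with their high points on Splotch null 2 and wild type 3. Tbx6 sits above Msgn1 on wild type 2 and 3.

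Tbx6 and Msgn1 followed different orders across arrays. The log2 value of Tbx6 minus that of Msgn1 was -0.048, 0.030 and -0.050 in Splotch null embryos, against 0.13, 0.53 and 0.51 in wild type embryos. The genotypes did not overlap, and the contrast averaged -0.023 ± 0.046 in Splotch null and 0.39 ± 0.23 in wild type (SD, n = 3 each). It differed by -0.41, with an exact permutation p of 0.1, the lowest 3 arrays against 3 allow. After Benjamini-Hochberg adjustment over 6 such contrasts, the p was 0.6. How often other pairs of probes separate the genotypes was not computed. Only the change of a contrast between genotypes is compared, since the levels of different probes share no scale. T minus Tbx6 differed by 0.35 (exact permutation p = 0.6, adjusted 0.72).

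Among the caudal-type homeobox genes, Cdx1 varied most between arrays. Its brighter probe, GE113178, had 9.83, 10.77 and 9.77 in Splotch null embryos, against 10.35, 10.24 and 10.64 in wild type embryos. Splotch null 2 was the brightest array and the other Splotch null arrays were the dimmest 2, so the Splotch null values enclosed all wild type values. Means were 10.13 ± 0.56 in Splotch null and 10.41 ± 0.21 in wild type embryos (SD, n = 3 each), a difference of -0.28 (SE 0.28, interval -0.94 to 0.37, exact permutation p = 0.5). Splotch null 2 was also the array with high yolk sac markers, and without it the difference was -0.61, which limma did not call either. It was -0.14 without Splotch null 1, -0.11 without Splotch null 3 and -0.17 without wild type 3. The dimmer probe, GE118685, read 7.60, 8.27 and 7.28 in Splotch null embryos, against 8.00, 7.75 and 8.27 in wild type. Both probes ranked the arrays alike, except that the brightest 2 changed places, and the dimmer probe differed by -0.29 (SE 0.27, exact permutation p = 0.4). The log2 value of the brighter probe minus the dimmer was 2.41 ± 0.15 in Splotch null and 2.40 ± 0.075 in wild type embryos (SD, n = 3 each).

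Cdx2, a Cdx factor also required in trophectoderm and gut, lies at chr5:147300900-147307249 and was measured by probe GE34841. It had 11.44, 11.06 and 11.07 in Splotch null embryos, against 11.04, 11.20 and 11.03 in wild type embryos. Splotch null 1 stood above the rest, which lay within a narrow band. Means were 11.19 ± 0.22 in Splotch null and 11.09 ± 0.099 in wild type embryos (SD, n = 3 each), a difference of 0.10 (SE 0.15, interval -0.25 to 0.45, exact permutation p = 0.5). Without Splotch null 1 it was -0.025.

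Cdx4, the X-linked member of the family, lies at chrX:103321398-103330224 and was measured by probe GE34842. It had 9.59, 9.49 and 9.40 in Splotch null embryos, against 9.27, 9.47 and 9.16 in wild type embryos. Only wild type 2 reached into the Splotch null range. Means were 9.49 ± 0.098 in Splotch null and 9.30 ± 0.15 in wild type embryos (SD, n = 3 each), a difference of 0.19 (SE 0.13, interval -0.12 to 0.50, exact permutation p = 0.2). The Y-linked gene Ddx3y read 9.40, 5.89 and 9.94 in Splotch null embryos, against 9.36, 5.91 and 9.12 in wild type. On the low-Ddx3y arrays Cdx4 read 9.49 (Splotch null 2) and 9.47 (wild type 2), within its range on the others. Of the other Y-linked genes, Kdm5d and Uty were also lowest on Splotch null 2 and wild type 2. Kdm5d read 8.85, 7.65 and 9.05 in Splotch null embryos, against 8.79, 7.91 and 9.10 in wild type (difference -0.082, SE 0.43). Uty read 8.34, 5.87 and 9.09 in Splotch null embryos, against 8.70, 6.01 and 8.25 in wild type (difference 0.11, SE 0.96). Relative to Cdx2, Cdx4 differed little: Cdx2 minus Cdx4 was 1.70 ± 0.14 in Splotch null and 1.79 ± 0.064 in wild type embryos (exact permutation p = 0.4, adjusted 0.72). Cdx1 minus Cdx2 differed by -0.38 (exact permutation p = 0.5) and Cdx1 minus Cdx4 by -0.48 (exact permutation p = 0.3), each 0.72 after adjustment.

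Sp5, a zinc finger factor and target of Wnt signalling, was measured by probe GE38180. It had 10.67, 10.12 and 10.46 in Splotch null embryos, against 10.29, 10.07 and 10.23 in wild type embryos. Splotch null 1 and 3 lay above all wild type arrays, while Splotch null 2 lay among them. Means were 10.42 ± 0.28 in Splotch null and 10.20 ± 0.11 in wild type embryos (SD, n = 3 each), a difference of 0.22 (SE 0.17, interval -0.17 to 0.61, exact permutation p = 0.3). It was 0.37 without Splotch null 2 and 0.096 without Splotch null 1. Sp8, its close relative in the tail bud and limb ectoderm, had no named probe and was not analysed here.

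Nkx1-2, a homeobox gene of the preneural tube and progenitor region, lies at chr7:132596239-132599637 and was measured by probe GE33616. It had 7.78, 7.58 and 8.32 in Splotch null embryos, against 7.74, 7.84 and 7.32 in wild type embryos. The brightest array was Splotch null 3 and the dimmest wild type 3, with the rest mixed between. The difference was 0.26 (SE 0.23, interval -0.28 to 0.80, exact permutation p = 0.5), and it was 0.045 without Splotch null 3. This probe reached closest to background in the set, with raw intensities 4.25 to 15.7 times the negative controls, so the added 50 shrinks its log2 difference.

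Evx1, a homeobox gene of the primitive streak, tail bud and later of spinal interneurons, lies at chr6:52313498-52318389 and was measured by probe GE34363. It had 8.26, 7.90 and 8.14 in Splotch null embryos, against 7.81, 7.90 and 8.06 in wild type embryos. Splotch null 1 and 3 lay above all wild type arrays and Splotch null 2 within their range. The difference was 0.17 (SE 0.14, interval -0.16 to 0.51, exact permutation p = 0.3), and it was 0.28 without Splotch null 2 and 0.095 without Splotch null 1.

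**Figure D3:**
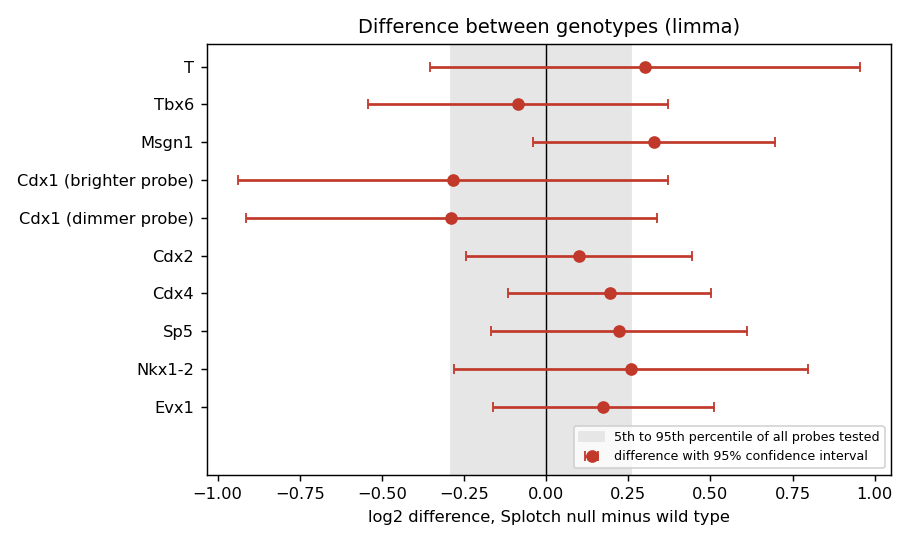
Log2 difference, Splotch null minus wild type, of each probe (horizontal axis) from limma, with its 95% confidence interval. The grey band spans the 5th to 95th percentile of all probes tested, -0.29 to 0.26. All 10 intervals cross 0, and the points of T and Msgn1 lie above the band.

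The median difference over the 9 genes was 0.19, beside 0.0046 over all probes tested, and the median size of the difference was 0.22, beside 0.097. Their standard deviations were larger in Splotch null embryos for 7 of the 9, and the share over all probes was not computed. For T, this sets 3 Splotch null arrays against 2 wild type arrays. Without Splotch null 2, Tbx6 differed by -0.067, Cdx2 by 0.17, Cdx4 by 0.19 and Nkx1-2 by 0.42. The set's median was 0.28 without Splotch null 2 and 0.096 without Splotch null 1. No test was made over the genes, which are not replicates.

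**Figure D4:**
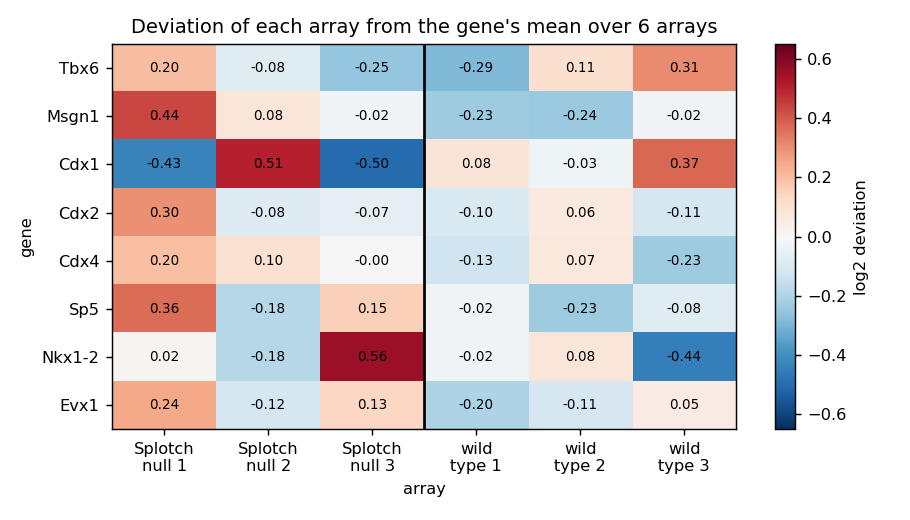
Deviation of each array from the gene's mean over 6 arrays (colour and printed value, log2), for the 8 genes measured on all arrays, with Splotch null arrays left of the line and wild type right. Splotch null 1 is above 0 for all 8 genes but Cdx1, and Cdx1 is strongly above its mean on Splotch null 2.

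Array by array, the genes did not vary as a block. Splotch null 1 held the highest value for 5 genes (Msgn1, Evx1, Cdx2, Cdx4 and Sp5), Splotch null 3 for T and Nkx1-2, Splotch null 2 for Cdx1 and wild type 3 for Tbx6. The lowest value lay on Splotch null 2 and Splotch null 3 for 1 gene each, on wild type 1 and wild type 2 for 2 each, and on wild type 3 for 3. Over the 8 genes measured on all arrays, the mean deviation was 0.17, 0.0043 and 0.00064 on the Splotch null arrays, against -0.11, -0.037 and -0.020 on the wild type arrays. Without Cdx1, which lay below its mean on Splotch null 1 and above it on Splotch null 2, it was 0.25, -0.067 and 0.072 in Splotch null, against -0.14, -0.038 and -0.076 in wild type.

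The other genes of the pathways around these factors were taken from lists chosen with results of these data known, and 0 genes of any list passed limma's adjusted p. Of 13 signals of the tail bud, 11 were tested, with 7 brighter and 4 dimmer in Splotch null embryos and a median difference of 0.058. Bmp7, a bone morphogenetic protein, had 10.36, 10.82 and 10.75 in Splotch null embryos, against 11.55, 11.21 and 10.93 in wild type embryos, with no overlap (difference -0.59, SE 0.20, exact permutation p = 0.1, limma p 0.020 before adjustment). Wnt5b (0.24, SE 0.12) and Fgf17 (0.22, SE 0.12), ligands of the tail bud, also had no overlap, with Splotch null above. Of 13 Wnt feedback and effector genes tested out of 14, 7 were brighter and 6 dimmer, with a median of 0.067. Tcf7, a TCF/LEF factor, had a difference of -0.28 (SE 0.13), and Znrf3, a ubiquitin ligase that removes Wnt receptors, -0.21 (SE 0.11), both without overlap. Nkd2, an inhibitor of Wnt signalling, differed by 0.18 (SE 0.11), also without overlap. Genes without overlap were 3 of 11 signals and 3 of 13 Wnt genes, in lists chosen with these data known, beside 5.24% of all probes measured on 6 arrays. The FGF and retinoid lists had 0 such genes among 9 and 7 tested. Of 9 FGF feedback genes tested out of 9, 6 were brighter and 3 dimmer (median 0.023), with Spry1 at -0.20, Spry4 at -0.13 and Etv4 at 0.16. Of 8 retinoid genes 7 were tested, 3 brighter and 4 dimmer (median -0.069). Cyp26a1, which breaks down retinoic acid in the tail bud, differed by 0.23 (SE 0.18), the receptor Rarb by -0.22 and the binding protein Crabp2 by -0.069.

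Of 17 presomitic clock and segmentation genes, which include known targets of Tbx6 and Msgn1, 15 were tested, with 4 brighter and 11 dimmer in Splotch null embryos and a median difference of -0.080. Tcf15, a basic helix-loop-helix factor of epithelial somites, had 9.14, 9.22 and 8.85 in Splotch null embryos, against 9.77, 9.56 and 10.60 in wild type embryos. It showed no overlap between genotypes (difference -0.90, SE 0.27, exact permutation p = 0.1, limma p 0.012 before adjustment). Mesp1 (-0.45, SE 0.28) and Meox1 (-0.30, SE 0.24) overlapped. Tcf15 was 1 of 15 genes of the list without overlap, beside 5.24% of all probes measured on 6 arrays. The list's mean deviation from its own mean was -0.17, -0.16 and 0.070 on the Splotch null arrays, against 0.00095, -0.11 and 0.37 on the wild type arrays. Of 16 caudal Hox genes, which include known targets of the Cdx factors, 13 were tested, 9 brighter and 4 dimmer, with a median of 0.078. Hoxa10 differed by 0.46 (SE 0.24), Hoxa9 by -0.40 (SE 0.24) and Hoxa13 by 0.23 (SE 0.15), so genes of 1 cluster lay on both sides. The Hox list's mean deviation was 0.18, -0.10 and 0.034 on the Splotch null arrays, against -0.14, 0.090 and -0.063 on the wild type arrays. Without Splotch null 2, Hoxa10 differed by 0.69, Hoxa9 by -0.34 and Hoxa13 by 0.35.

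Neural progenitor genes, the other fate of the tail bud population, were all tested (10 of 10), with 4 brighter and 6 dimmer and a median of -0.027. The list's mean deviation from its own mean was 0.22, -0.75 and 0.49 on the Splotch null arrays, against -0.21, -0.020 and 0.28 on the wild type arrays. Without Splotch null 2, the array with high yolk sac markers, all 10 were brighter in Splotch null embryos and 0 were called, with a median of 0.33 and 6 genes turned in direction. Irx3 (-0.11, SE 0.16), Sox1 (0.10, SE 0.17) and Sox3 (0.29, SE 0.48) had the lowest p of the list with all arrays, and differed by 0.018, 0.21 and 0.83 without Splotch null 2. Of 8 notochord and floor plate genes 5 were tested, 3 brighter and 2 dimmer. Nog, a secreted inhibitor of bone morphogenetic proteins, differed by -0.31 (SE 0.14) without overlap, while Shh (0.43, SE 0.20) and Foxa2 (0.32, SE 0.31) overlapped. Nog was 1 of 5 in its list without overlap, beside 5.24% of all probes measured on 6 arrays. Of 23 relatives of the set's genes 17 were tested, 8 brighter and 9 dimmer, with a median of -0.0015. Tbx22 (0.43, SE 0.17) was the only relative tested without overlap, 1 of 17, beside 5.24% of all probes measured on 6 arrays. Mesp1, given above, is also in this list, and Tbx18, a T-box factor of the somites, differed by -0.25 (SE 0.14).

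Without Splotch null 2, 0 genes of any list were called. The counts brighter and dimmer in Splotch null embryos were then 8 and 3 for the tail bud signals (median 0.19), 6 and 7 for the Wnt genes (-0.056), 6 and 3 for the FGF genes (0.11) and 3 and 4 for the retinoid genes (-0.030). They were 4 and 11 for the segmentation genes (-0.095), 9 and 4 for the Hox genes (0.066), 2 and 3 for the notochord genes (-0.27) and 5 and 12 for the relatives (-0.099). Cyp26a1 differed by 0.40 and Rarb by -0.030.

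**Figure D5:**
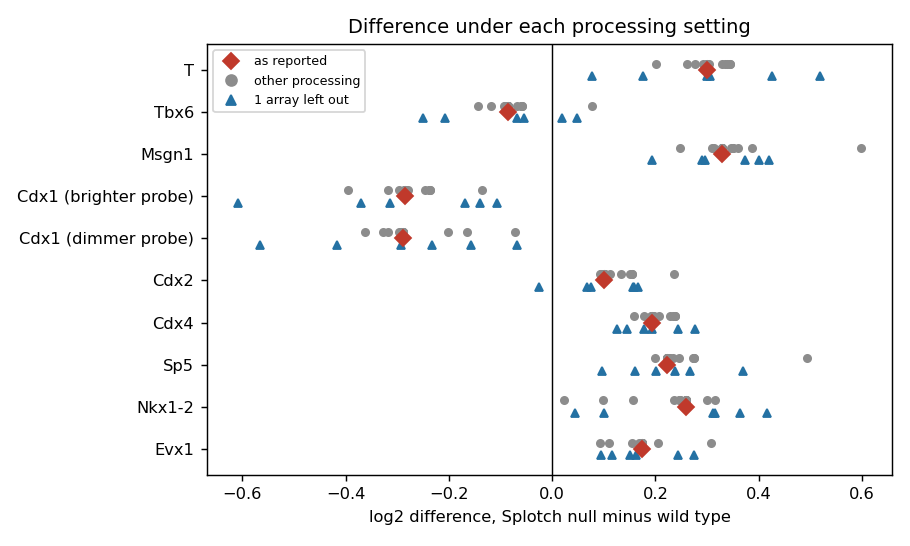
Log2 difference, Splotch null minus wild type, of each probe (horizontal axis) as reported (diamonds), under other processing (grey circles) and with 1 array left out (blue triangles). Tbx6 crosses 0 on 3 settings and Cdx2 on 1, while the other probes stay on their side of 0 under each setting drawn.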

How the data were processed

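RNA from 3 Splotch null and 3 wild type samples was measured on single-colour CodeLink arrays. Replicate numbers follow accession order and pair nothing. Per the file headers, CodeLink Expression Analysis 5.0.0.31312 wrote the deposited intensity, which holds a background-subtracted raw intensity and one normalized by the array median. The background method and the genome build of the probes are not given in the sources used here. The authors' deposited value table holds the same intensity on a linear scale, up to 1 constant per array. It was not centred by gene, and its median is 1.0363 on each array.

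Good (G), near-background (L) and saturated (S) spots were used, and 277 to 422 other spots per array were left out. After a floor of 0.00595, 50 was added to the raw intensity, and its log2 was quantile-normalized over 34967 probes, which shrinks the log2 differences of dim genes. limma 3.58.1 (R 4.3.3) was fitted to the 24466 probes with a good or saturated spot on 3 or more of the 6 arrays, with Benjamini-Hochberg adjustment over all of them. The fit was run on simulated data with shifts larger than any difference of the set. It therefore does not show what the fit would find at the sizes reported here. A gene was represented by its brightest probe. Single values were tested with exact two-sided permutation tests, which cannot go below 0.1 for 3 arrays against 3. The number of arrays limits the precision.

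Probe names come from the platform annotation at GEO, parts of which may be out of date: 21487 by gene identifier to GRCm38.p6 symbols, 128 keeping the platform symbol and 536 by accession (T among them). Those with several symbols (681) or none (12135) stayed unnamed. The genes and lists were chosen with earlier results of these data known. All genes of the set are named, and up to 3 genes per list with the smallest p, plus genes of the tissue check; some marker genes are not reported here. Alternatives were other scalings (median, cyclic loess, the authors' normalized intensity, their value table), offsets of 10 and 200, 2 other filters, all flags, trended and robust eBayes, array weights, array median as a covariate, the mean of a gene's probes and each array left out. Figures were drawn with matplotlib 3.10.9.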

Additional observations from a re-analysis of the deposited data

How the results depend on the processing

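No probe was called by limma in any of the 20 alternatives (0 each), while the number with an unadjusted p under 0.05 ran from 179 without wild type 2 to 5675 under array weights, against 329 as reported. Of 198 values of the set's 10 probes under these alternatives, 194 kept their direction. Many of these could not turn, so the count does not measure robustness. The 2 other filters and the trended and robust eBayes leave a probe's estimate as it is. So does the mean of a gene's probes where a gene has 1 probe, and leaving out wild type 2 for T. The authors' normalized intensity gave the same differences as median scaling. Tbx6 turned to 0.077 under array weights, to 0.020 without Splotch null 3 and to 0.048 without wild type 3, and its range with 1 array left out was -0.25 to 0.048. Cdx2 turned to -0.025 without Splotch null 1, in a range of -0.025 to 0.17. The median difference of the set ran from 0.096 to 0.28 with 1 array left out and from 0.13 to 0.24 otherwise, and 6 to 8 genes were brighter in Splotch null embryos. The lowest adjusted p of any probe was 0.12, under array weights, where Msgn1 differed by 0.60. These weights ran from 0.257 on Splotch null 3 to 7.33 on Splotch null 1, and their estimation stopped before its tolerance. The cause of these shifts was not tested. Without the 2 brightest arrays, the median was 0.13. This alternative, and the gene lists without Splotch null 2, were chosen after the data were seen. Without Splotch null 2, the median of the neural progenitor list turned to 0.33, that of the Wnt list to -0.056 and that of the notochord list to -0.27. The medians of the yolk sac list (to -0.40) and the hindgut list (to -0.11) turned as well. T had no value under the filter on all 6 arrays, since its spot on wild type 2 was left out. Without wild type 1 or 3, T had 1 wild type value, which is assumed to vary like the others. No paired analysis was possible because the replicate numbers follow accession order and link no samples. The offset limits what can be read from dim probes such as that of Nkx1-2.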

Other observations

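The values of 4 other tail bud genes are given beside the array order of T. They were picked after their values were seen, so they are a description with no test. Cyp26a1 read 10.68, 10.37 and 11.05 in Splotch null embryos, against 10.53, 10.48 and 10.40 in wild type embryos, and over the 5 arrays with a value for T it followed the order of T. Rspo3, a secreted enhancer of Wnt signalling, read 10.68, 10.18 and 11.02 in Splotch null embryos, against 10.42, 10.54 and 10.15 in wild type embryos, with its brightest array the same as that of T. Wnt3a, the Wnt ligand of the tail bud, read 11.19, 10.73 and 11.48 in Splotch null embryos, against 10.81, 11.08 and 11.00 in wild type embryos, and its brightest array was also Splotch null 3 and its dimmest Splotch null 2. Fgf8, an FGF ligand of the tail bud, was brightest on Splotch null 1 instead, with 11.24, 10.87 and 10.61 in Splotch null embryos, against 10.20, 10.81 and 10.84 in wild type embryos.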
